A study of Drosophila melanogaster with 2 samples.

Results

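The 10 genes described here encode the core of integrin adhesion in Drosophila melanogaster and its laminin ligand. They were taken from 13968 protein-coding genes on the chromosome arms by name and by role, with earlier results of these data known. The receptors are the integrin subunits mys, if, mew and scb, the linkers to actin are rhea, Ilk and stck, and the laminin chains are LanA, LanB1 and LanB2. For each gene the binding of the protein CG13287 was read at its transcription start sites (TSSs). A gene was counted as bound in a list of peaks when the summit of a peak lay within 500 bp of any of its annotated TSSs.

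The samples were 2 biological replicates of 1 group, namely whole embryos aged 6 to 24 h from a transgenic strain expressing CG13287 fused to eGFP. Chromatin sonicated to 200 to 800 bp was precipitated with an antibody against GFP and sequenced. No other genotype, stage or treatment was part of the series, and an input or mock library was not analysed here. Whole embryos mix all tissues, so a peak cannot be placed in a cell type, and the tagged protein stands for the native one. Nothing in the files holds read counts, so the depth behind each value is unknown.

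Integrins are heterodimers of an alpha and a beta subunit that hold cells to the extracellular matrix. Inside the cell, talin and the complex of integrin-linked kinase, PINCH and parvin join them to actin. Outside, laminin, a trimer of an alpha, a beta and a gamma chain, is the chief ligand in basement membranes. In fly embryos the system anchors muscles to tendon cells and holds epithelia and the gut to their basement membranes.

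Every list gives a peak signal, which is the authors' value for peak strength and has no stated relation to depth or control. The irreproducible discovery rate (IDR) is the estimated chance that a peak's rank does not repeat between 2 lists. Filtered lists hold peaks with a scaled IDR score of at least 830, an IDR of 0.01 or lower, and ranked lists hold all peaks before that filter. The conservative list rests on both replicates set against each other and holds 5955 peaks. The optimal list rests on both replicates pooled and holds 7031 peaks. Replicate 1 alone gave 4014 filtered peaks and replicate 2 alone gave 7340. The conservative signal over the sum of the replicate signals had a median of 0.993 over all peaks and 0.768 over peaks below 100. Levels are therefore compared within a list. At LanB1 this value was 0.183. There the replicate entries had summits 288 and 348 bp from the conservative summit. Where a ratio of replicate 1 over replicate 2 is given, it is set beside the same ratio over other peaks, since the libraries' depths are unknown.

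Tagged CG13287 had a peak at the start of 9 of the 10 genes in the conservative list, where 39.8% of all protein-coding genes had one. The exception was LanA. All 4 receptor genes and all 3 linker genes were bound, along with 2 of 3 laminin genes. The strength of binding was widely spread. mys reached a signal of 949 and rhea 689, whereas LanB1 had 28.2 at a summit 321 bp upstream of its start. The peak at the LanB1 start itself was not in this list and had 140 in the optimal list. The median of the 9 bound members was 177, against 255 for all 5565 bound genes, whose quartiles were 153 and 513.

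The bases before the starts are shown for 9 genes, all but scb. They hold most of the summits and let the promoters be compared by eye. Each line runs 5′ to 3′ on the gene's own strand and ends with the base before the TSS, on the dm6 assembly (RefSeq Release 6 genome, Ensembl BDGP6.54 starts). The start shown is the one with the strongest summit, or for LanA its only start. Each has 150 bases, except that Ilk has 61 bases because the divergent gene Trmt112 begins there. Capitals mark exact matches, on either strand, to a short set of promoter words. These are the DRE word TATCGATA, its core ATCGAT, the M1BP word GGTCACACT, the E-box CAGCTG, the GAGA word GAGAG and the TATA word TATAAA. The DRE core lies inside the DRE word, so each DRE is also a core match.
mys, chrX:8061495-8061644, plus strand: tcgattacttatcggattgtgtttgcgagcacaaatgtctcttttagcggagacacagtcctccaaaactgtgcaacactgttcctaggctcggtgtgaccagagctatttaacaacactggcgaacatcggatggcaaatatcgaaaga
if, chrX:16782546-16782695, minus strand: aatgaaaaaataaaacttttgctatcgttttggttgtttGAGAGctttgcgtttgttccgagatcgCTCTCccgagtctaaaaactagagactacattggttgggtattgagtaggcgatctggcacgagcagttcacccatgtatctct
mew, chrX:13257184-13257333, minus strand: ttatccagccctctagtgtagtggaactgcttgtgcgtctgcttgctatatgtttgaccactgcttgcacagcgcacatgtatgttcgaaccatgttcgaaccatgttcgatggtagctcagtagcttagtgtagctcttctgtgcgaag
The receptor starts above had no DRE word or core in this window. The if promoter had GAGA words at -84 and -111, counted from the TSS with upstream bases negative. The linker starts follow.
rhea, chr3L:8544851-8545000, plus strand: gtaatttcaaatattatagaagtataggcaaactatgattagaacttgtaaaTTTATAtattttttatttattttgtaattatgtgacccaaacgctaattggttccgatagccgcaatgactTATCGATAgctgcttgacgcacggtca
Ilk, chr3L:21216840-21216900, plus strand: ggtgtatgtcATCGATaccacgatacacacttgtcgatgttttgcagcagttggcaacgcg
stck, chr3R:8356828-8356977, plus strand: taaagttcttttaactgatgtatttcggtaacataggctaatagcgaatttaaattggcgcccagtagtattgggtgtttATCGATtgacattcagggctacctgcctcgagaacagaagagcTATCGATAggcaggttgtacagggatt
Both rhea and stck carried the DRE word with its first base at -27. The Ilk window held a DRE core at -51. A further core lay at -70 in stck, and a TATA word, on the opposite strand, lay at -98 in rhea. The laminin starts follow.
LanA, chr3L:6218023-6218172, minus strand: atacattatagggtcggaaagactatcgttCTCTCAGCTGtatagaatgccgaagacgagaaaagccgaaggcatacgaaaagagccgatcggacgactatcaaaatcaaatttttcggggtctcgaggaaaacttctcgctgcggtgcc
LanB1, chr2L:7811288-7811437, plus strand: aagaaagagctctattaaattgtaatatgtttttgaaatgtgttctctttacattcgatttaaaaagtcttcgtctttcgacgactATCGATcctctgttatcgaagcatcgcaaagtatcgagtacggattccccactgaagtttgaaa
LanB2, chr3L:9614764-9614913, plus strand: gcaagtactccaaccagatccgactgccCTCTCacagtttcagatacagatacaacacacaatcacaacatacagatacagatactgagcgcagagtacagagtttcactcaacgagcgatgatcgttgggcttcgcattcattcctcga
LanB1 had a DRE core at -64, LanB2 had a GAGA word at -122, and LanA had an E-box at -116 that overlapped a GAGA word at -120.

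Over the 150 bases before a start, the DRE word was found in 2 of 10 members, in 15.7% of all 5565 bound genes and in 5.65% of 19276 distinct starts of protein-coding genes. The DRE core was in 4 of 10 members, against 33.5% of bound genes and 14.8% of all starts. At the 1 start read per gene, all 3 linker genes and LanB1 had the core, and no receptor gene had it. This split did not hold at the bound summits, where the distal mew summit had the word and neither rhea summit had the core. GAGA words were in 4 of 10 members (if, LanA, LanB2 and scb, which is not shown above). They were in 17.4% of bound genes and 20.8% of all starts. The other words were in 1 member or none, against 23.4% of bound genes for TATA, 14.1% for the E-box and 5.25% for M1BP. Over all starts these shares were 26.3%, 9.95% and 2.23%. The placement shared by rhea and stck, a DRE word that begins at -27, was seen in 9 of 5565 bound genes, or 0.162%. Over all starts it was seen at 12 of 19276, or 0.0623%. It was picked out after the sequences had been read. These matches are letters in a window and do not show which factor was there.

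**Figure D1:**
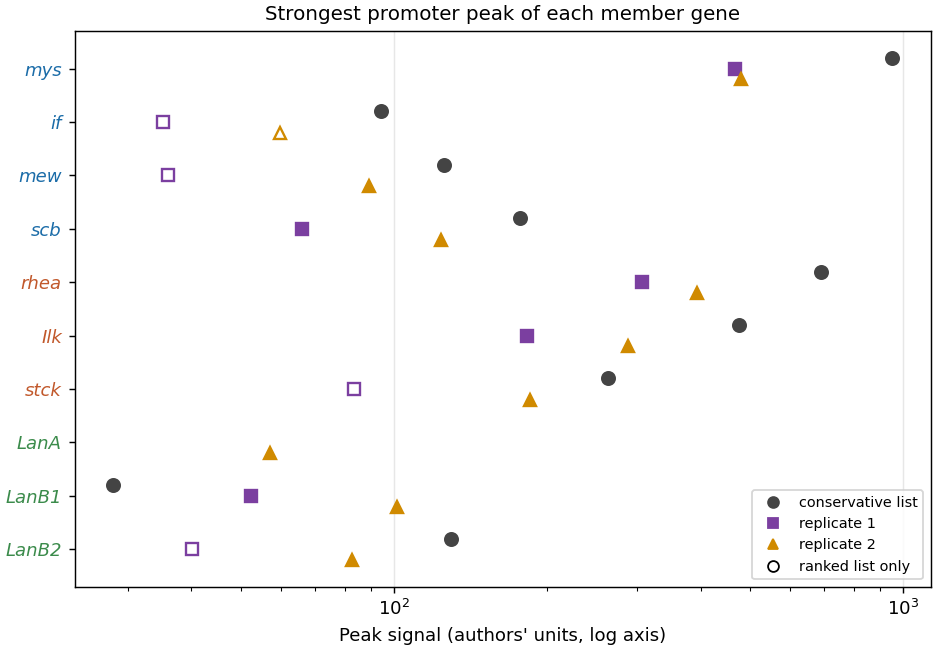
Signal of the strongest peak within 500 bp of a start of each gene (log axis, authors' units), in the conservative list (circles), replicate 1 (squares) and replicate 2 (triangles). Names are blue for receptors, orange for linkers and green for laminins, filled marks are filtered peaks and open marks are in a ranked list only. mys and rhea lead in all 3, and if, mew and the laminin genes lie at the low end.

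Among the receptors, mys stood apart from its partners. mys (FBgn0004657, chromosome X, 8061645 to 8070237, plus strand) encodes the beta subunit shared by the embryonic integrins and has 1 annotated TSS. Its peak had a signal of 949 in the conservative list, where it ranked 234 of 5955, and 94.0% of bound genes had a weaker one. It had 467 in replicate 1 and 480 in replicate 2, both filtered. The ratio of replicate 1 over replicate 2 was 0.973, against a median of 0.751 (upper quartile 0.850) over the 1002 conservative peaks with a signal of 500 or more, and 0.625 over 5910 conservative peaks.

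The mys summit lay 121 bp upstream of its TSS, in the gap between mys and the divergent gene fs(1)h, which encodes a BET bromodomain protein. The starts are 209 bp apart, and the summit was 88 bp from that of fs(1)h. In replicate 1 the summit was at the same base, and in replicate 2 it lay 67 bp upstream of mys. The peak spanned both starts, so its signal cannot be told apart between the neighbours. mys also had a peak inside an intron, 1689 bp past its start, with a signal of 92.4 in the conservative and optimal lists.

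The alpha subunits had lower signals at every start. scb (FBgn0286785, chromosome 2R, 15248784 to 15258498, plus strand) encodes an alpha subunit known from dorsal closure and the trachea. It had 177 in the conservative list (rank 3005), 66.0 in replicate 1 and 124 in replicate 2. These peaks were all filtered, and their summits agreed within 1 bp, 42 or 43 bp upstream of an internal start at 15252650. The conservative list had no peak at the first start, at 15248784. The ranked conservative list had one there of 68.3 at 270 bp downstream, with a score of 627, and replicate 2 alone had a filtered one of 48.9 at 206 bp downstream.

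mew (FBgn0004456, chromosome X, 13214409 to 13258490, minus strand) encodes the alpha subunit of the laminin-binding integrin and was bound at both of its starts. The internal start, used by 4 of 6 annotated transcripts, had a signal of 125 with the summit 13 bp downstream. That peak had 36.0 in replicate 1, in the ranked list only, and 89.5 in replicate 2, filtered. The distal start had 109 with the summit 182 bp upstream, and there both replicates (30.3 and 70.0) had ranked entries only. The distal peak sat where 3 genes begin. CG15742 starts 5 bp from mew on the same strand, and comt, which encodes the vesicle fusion factor NSF, starts 531 bp away on the other strand, 349 bp from the summit.

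if (FBgn0001250, chromosome X, 16752189 to 16783434, minus strand) encodes the alpha subunit that binds RGD-containing ligands such as Tiggrin. It had the weakest receptor peak, with 94.4 at 76 bp upstream of its middle start (rank 5172, score 920). A further summit, 38 bp past its most upstream start, had 36.2 (rank 5762, score 847). The peak at the middle start had 35.3 in replicate 1, with a score of 485, and 59.7 in replicate 2, with a score of 818. Both scores were below 830, so if was the one member bound in the conservative list with no filtered promoter peak in either replicate. The optimal list kept the first peak and not the second.

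Among the members, the linkers had the highest role median in the conservative list, 476. It is the value of Ilk, whose peak is shared with the divergent gene Trmt112. The receptors had a median of 151 and the bound laminin genes 78.8. The laminin median rests on LanB1 and was 135 in the optimal list, where the linkers had 476 and the receptors 151. rhea (FBgn0260442, chromosome 3L, 8545001 to 8574409, plus strand) encodes talin, which binds the tail of the beta subunit and actin. Its first start had a signal of 689, rank 578 of 5955, and 85.0% of bound genes had a weaker peak. Replicate 1 had 307 there and replicate 2 had 394, both filtered. The summits lay 96 bp upstream in the conservative list, 92 bp in replicate 1 and 57 bp in replicate 2.

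A separate rhea start, at 8546675, had its own peak of 151 with the summit 48 bp upstream. In replicate 1 it had 37.7, in the ranked list only, and in replicate 2 it had 105, filtered. Its ratio of replicate 1 over replicate 2 was 0.359, where all peaks with a signal between 100 and 200 had a median of 0.550. At the first start the ratio was 0.780, where all peaks of 500 or more had 0.751. A start further in, at 8560168, had a ranked peak of 65.0 with a score of 340. The start at 8557964 had none within 500 bp in any list.

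Ilk (FBgn0028427, chromosome 3L, 21216901 to 21219240, plus strand) encodes integrin-linked kinase, a scaffold of the adhesion complex. It had 476 in the conservative list, rank 1074, with 182 in replicate 1 and 288 in replicate 2, both filtered. The summit was 17 bp upstream of Ilk and 45 bp from the start of Trmt112, which encodes an activator of methyltransferases. Only 62 bp separate these divergent starts, fewer than the shortest fragment length of 200 bp, so the peak cannot be told apart between them.

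stck (FBgn0020249, chromosome 3R, 8356978 to 8359964, plus strand) encodes PINCH, which bridges integrin-linked kinase to its partners. It had 263 in the conservative list, rank 2007, with the summit 13 bp downstream of its first start. Replicate 2 had 185, filtered, and replicate 1 had 83.3 with a score of 817, just below 830. In the optimal list stck gained a peak of 87.0 at 141 bp upstream of its second start. No other gene starts within 500 bp of the stck or rhea summits.

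**Figure D2:**
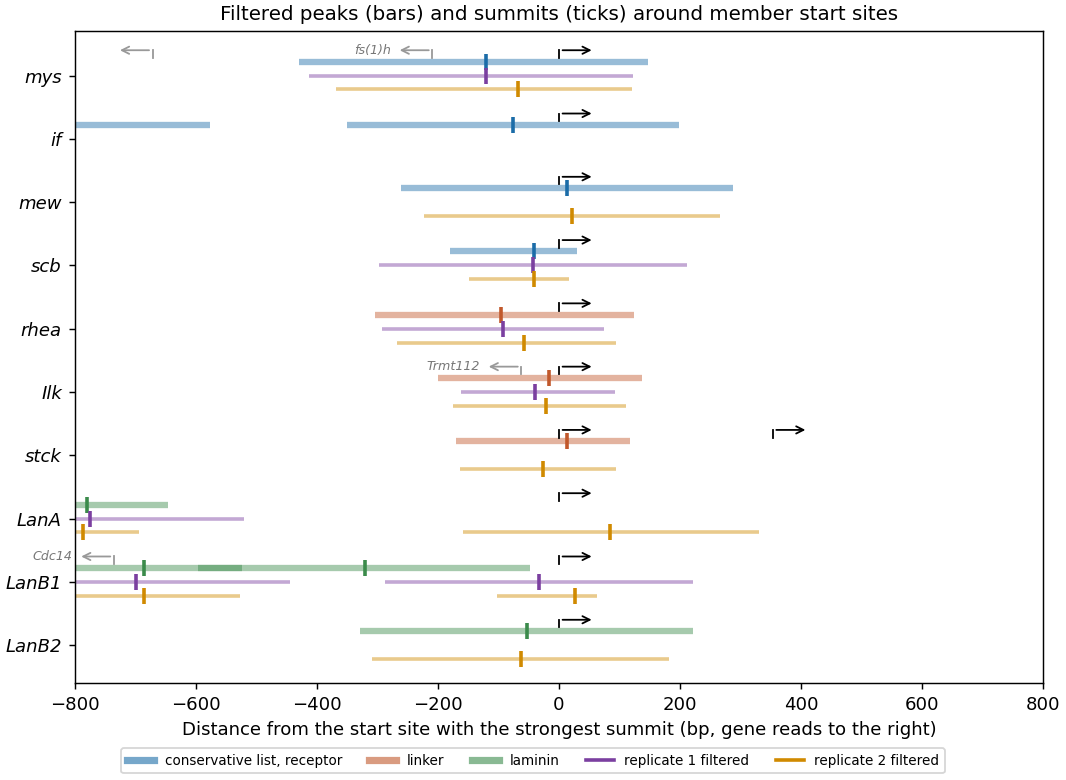
Filtered peaks (bars) and their summits (ticks) in bp from the start with the strongest summit of each gene, or from the only start of LanA, with the conservative list, replicate 1 and replicate 2 from top to bottom. Arrows are annotated starts, black for the gene itself and grey for others. Most summits lie just upstream of a start, and LanA and LanB1 have their conservative summits further out, at -780, and at -321 and -685.

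Both laminin genes bound in the conservative list had signals below the median of bound genes. LanB2 (FBgn0267348, chromosome 3L, 9614914 to 9623980, plus strand), the gamma chain, had 129 in the conservative list, rank 4129, with the summit 53 bp upstream of its first start. Replicate 1 had 40.1, in the ranked list only with a score of 690, and replicate 2 had 82.8, filtered. It was the one laminin gene whose conservative summit lay at the start itself.

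LanB1 (FBgn0261800, chromosome 2L, 7811438 to 7820771, plus strand), the beta chain, was counted through a peak of 28.2 that lay 321 bp upstream, rank 5814 of 5955. That summit is also 414 bp from the start of the divergent gene Cdc14, which encodes a phosphatase. Of 5565 bound genes LanB1 ranked 5560. Both replicates had a filtered peak at the LanB1 start itself, with 52.4 at 33 bp upstream in replicate 1 and 102 at 27 bp downstream in replicate 2. The optimal list had the matching peak, with 140 at 73 bp downstream and a score of 1000. In the ranked conservative list that same peak had a score of 142 and was not kept, while the peak at -321 had 1000. In the optimal ranked list the peak at -321 had a score of 72. The low conservative value of LanB1 therefore belongs to another summit than the one at its start.

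LanA (FBgn0002526, chromosome 3L, 6203831 to 6218022, minus strand), the alpha chain, had no promoter summit in the conservative or optimal filtered lists. In replicate 2 it had a filtered peak of 57.2 at 85 bp downstream, rank 6151 of 7340 with a score of 852. Replicate 1 had no entry within 500 bp, in the ranked list either. The ranked optimal list had 49.7 at 157 bp downstream with a score of 635. A stronger peak lay 780 bp upstream of LanA, with 236 in the conservative list, 92.3 in replicate 1 and 144 in replicate 2. That intergenic peak was in all 4 filtered lists, its summits lay between 775 and 786 bp from the LanA start, and no annotated gene starts within 500 bp of it.

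**Figure D3:**
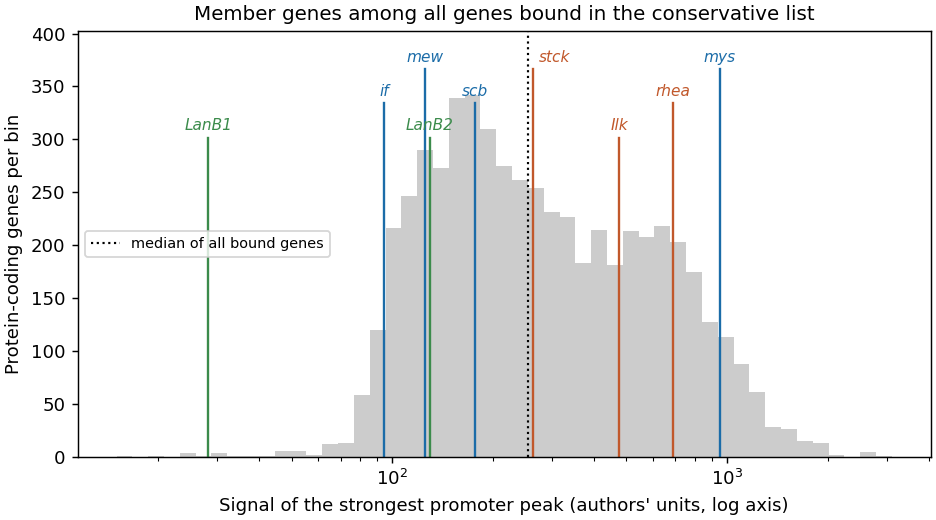
Histogram of the strongest promoter signal of all 5565 genes bound in the conservative list (log axis, authors' units, genes per bin), with the 9 bound members as vertical lines, blue for receptors, orange for linkers and green for laminins. The dotted line is the median of 255. mys and the 3 linkers lie above it, and if, mew, scb, LanB1 and LanB2 lie below it.

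Against all bound genes, 4 members lay above the median of 255 (mys, rhea, Ilk and stck) and 5 below it. if, with 94.4, and LanB1, through its summit 321 bp upstream, lay below the 10% point of 112. mys lay above the 90% point of 793. The median position of the strongest summit was 53 bp upstream (range from 321 bp upstream to 13 bp downstream), against 60 bp upstream for all bound genes, with quartiles of 133 and 14 bp upstream. It was upstream of the start in 7 of 9 members and in 80.2% of bound genes.

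The layout of starts was also counted, as a description. The strongest summit was within 500 bp of another gene's start in 3 of 9 members (mys, Ilk and LanB1), or 33.3%, and in 56.0% of bound genes. Separate starts of one gene were bound in 3 of 9 members (if, mew and rhea), against 6.85% of bound genes. Among bound genes with at least 2 annotated starts the counts were 3 of 7, or 42.9%, against 18.8% of 2026. Of the 21 annotated member starts, 13 had a conservative summit within 500 bp. The same share over all annotated starts was not counted, so this count has no background. The second stck start is counted through the summit at its first start.

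Within 50 bp on either side of the 12 member summits, the DRE word was found at 2 (stck and the distal mew start), against 12.7% of 5159 promoter summits. The core was at 3, with Ilk added, against 26.2%. GAGA words were at 3 (if, the internal rhea start and scb), against 13.6%, and TATA words at 3 (rhea, LanB1 and the distal mew start), against 12.3%. Neither the E-box (10.7% of promoter summits) nor M1BP (4.01%) was found at any of the 12. GC content ranged from 21.8% at the first rhea start to 60.4% at its internal start, with a median of 44.1%, against 42.6% over promoter summits. The summits at rhea thus included the lowest and the highest GC content of the set.

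Support by the replicates divided the members. The single-replicate lists differ in length, so their counts are read against their own background. In replicate 1 the filtered list had 5 of 10 members (mys, scb, rhea, Ilk and LanB1), where 30.3% of all genes were bound. In replicate 2 it had 9 of 10 (all but if), where 44.9% were bound. The optimal list had the same 9 as the conservative list, against 43.7% of all genes. Before the IDR filter, the ranked lists had 9 of 10 in the conservative (60.7% of genes), 10 of 10 in the optimal (62.8%), 9 of 10 in replicate 1 (58% of genes) and 10 of 10 in replicate 2 (66.1%). LanA was the member absent from the ranked conservative list and from the ranked list of replicate 1.

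**Figure D4:**
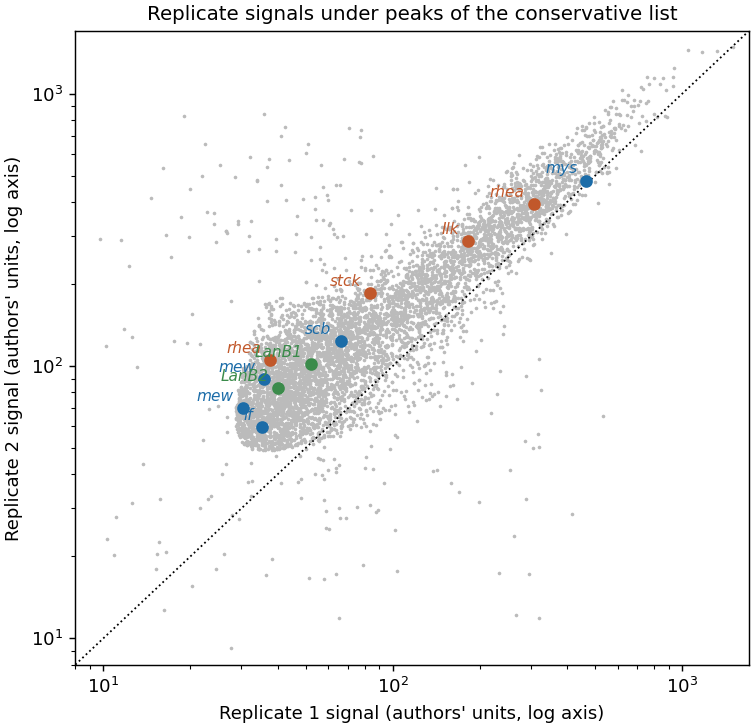
Signals of replicate 1 (x) and replicate 2 (y) under conservative peaks, on log axes in the authors' units, with all peaks in grey, equality as a dotted line and member peaks coloured by role (blue receptors, orange linkers, green laminins). Each peak takes the overlapping entry with the nearest summit, from the ranked lists. mys lies close to the line, and the other members lie above it, with higher signal in replicate 2.

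The ratio of replicate 1 over replicate 2 was below 1 at all 11 member peaks that had both values. It was 0.973 at mys, 0.780 at the first rhea start, 0.632 at Ilk, 0.591 at if, 0.535 at scb and 0.516 at LanB1. It was 0.484 at LanB2, 0.450 at stck, 0.432 and 0.402 at the distal and internal mew starts, and 0.359 at the internal rhea start. Over all conservative peaks the quartiles were 0.487 and 0.775, and 91.8% had a ratio below the 0.973 of mys. A ratio below 1 is therefore not particular to the members. Among all peaks the median also varied with signal, from 0.586 below 100 and 0.550 between 100 and 200 to 0.641 between 200 and 500 and 0.751 at 500 or more. For LanB1 the replicate values are those of the peak at its start, whose summits lie 288 and 348 bp from the conservative one. Whether depth or enrichment of the libraries moves with these ratios was not tested, as the files hold neither.

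The same roles were then followed in 25 further genes of adhesion and the matrix, also chosen with earlier results of these data known. In the conservative list 12 of 25 were bound, against 39.8% of all genes. The linkers had 10 of 13, the receptors 2 of 4 and the matrix genes 0 of 8. The median signal of these bound linkers was 183, against 454 for the 2 bound receptors and 255 for all bound genes. Of these receptors, ItgaPS5 had its summit 465 bp from its own start and 10 bp from that of Rrp4. With the members added, bound linkers had a median of 263 and bound receptors 260. The wide lead of the linkers among the members was thus not seen here. The 2 linkers with the highest signal were Fit2, a kindlin that activates integrins, with 1126, and Pax, the adaptor paxillin, with 1112. Both exceeded mys. The Pax summit also lay 239 bp from a start of Alp12 and 397 bp from one of CG13085. In replicate 1 Fit2 and Pax had 488 and 520, and in replicate 2 they had 647 and 593, all filtered.

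Among the other receptors, Dg, the laminin receptor dystroglycan, had 565, and its summit was shared with the start of mRpL34, a mitochondrial ribosomal protein gene. ItgaPS5, an integrin alpha subunit, had 343 at a summit 465 bp upstream of its own start and 10 bp from that of the exosome gene Rrp4. Itgbn and ItgaPS4, which encode a beta and an alpha subunit, had no filtered peak in any list. For ItgaPS4 this held for the ranked lists too.

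The matrix genes had the fewest filtered promoter peaks. No filtered promoter peak was found in any of the 4 lists for wb (the other laminin alpha chain), Col4a1 and vkg (the collagen IV chains), Ndg (nidogen), SPARC (a collagen-binding glycoprotein) and Pxn (peroxidasin). The highest ranked value among these 6 genes in replicate 2 was 57.2, at wb, and vkg had no entry in any ranked list. trol, the perlecan gene, had a filtered peak of 74.8 in the optimal list only, and Tig, which encodes Tiggrin, had one of 51.2 in replicate 2 only. Counting the laminin members, 2 of 11 matrix genes were bound in the conservative list, against 13 of 16 linkers and 6 of 8 receptors. The share of all genes there was 39.8%. In the ranked conservative list the matrix count was 6 of 11 (54.5%, against 60.7% of all genes). It was 8 of 11 in the ranked optimal list (72.7%, against 62.8%). The ranked list of replicate 1 had 4 of 11 (36.4%, against 58%). That of replicate 2 had 10 of 11 (90.9%, against 66.1%). In the ranked list of replicate 2 there were also 7 of 8 receptors and 16 of 16 linkers, so the matrix share was not the lowest there. Of the linkers, Zyx (zyxin) and ics, whose product binds PINCH, had no filtered peak in any list, with ranked values of 46.7 and 42.1 in replicate 2. p130CAS, an adaptor, was added by the optimal list, with 139, and by replicate 2, with 119.

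**Figure D5:**
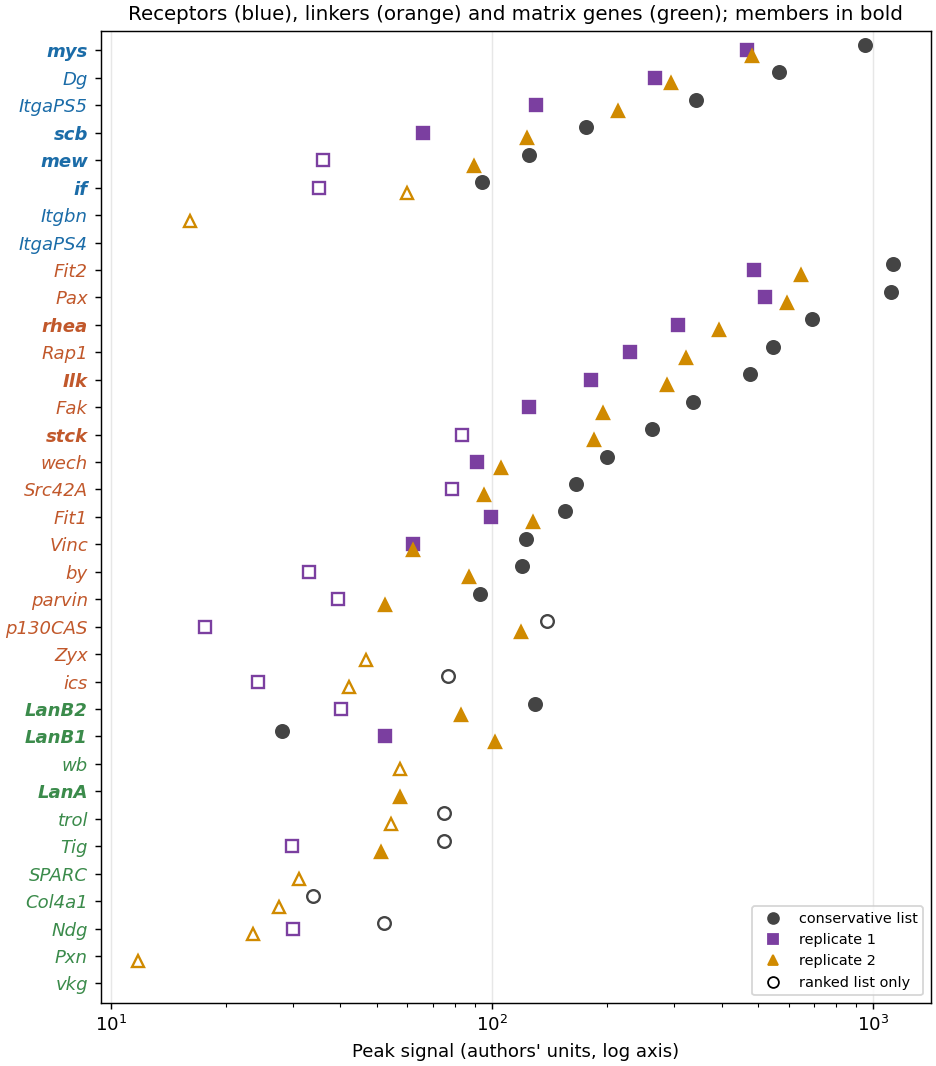
Strongest promoter signal (log axis, authors' units) of the 10 members (bold) and 25 further genes, grouped as receptors (blue), linkers (orange) and matrix genes (green) and sorted by conservative signal; circles are the conservative list, squares replicate 1 and triangles replicate 2, and open marks are in a ranked list only. Matrix genes have 2 filled circles, LanB2 at 129 and LanB1 at 28.2, and linkers have 13, up to 1126.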

How the data were processed

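CG13287-eGFP chromatin was precipitated from whole embryos in 2 replicates. The data are peak lists on dm6, per the labels, which the authors deposited as 4 filtered and 4 ranked lists. How reads were aligned, peaks called and controls scaled is not given in the sources used here. Peak signal, as deposited, has an unstated scale. The score the authors gave is a scaled IDR with a cap of 1000, and their ranked lists add a deposited −log10 IDR score. Other deposited columns give positions. Ranked lists were matched to the conservative and optimal lists by shared rows (100% against 76.0% and 64.4% in the other).

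Summits (start plus offset) were assigned to every TSS within 500 bp in Ensembl BDGP6.54, which uses dm6 coordinates. Coordinates are 1-based. The first coding codon read as ATG in 100% of 699 genes checked against the RefSeq genome. All 35 symbols matched. Replicate signals are the overlapping ranked entry with the nearest summit. Each gene takes its strongest peak. Python 3.11.15, numpy 2.4.6 and pandas 2.3.3 were used, and the assignment was tested on simulated data.

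With 1 group of 2 libraries there is no comparison of conditions, and no test was run and no p-value is given; counts over lists are descriptions. Members, gene lists and words were chosen with earlier results of these data known. Named genes were all members, the 2 strongest wider genes of each role, wider genes with no filtered peak, and genes sharing a member's summit; trol, Tig, p130CAS, mRpL34, Rrp4, Alp12, CG13085 and mRpL22 were added after their values were seen. Alternatives were promoter widths, the other lists, single replicates, the stronger part of the list, interval overlap, gene bodies, nearest TSS only, RefSeq starts and other choices of peak, start and replicate match.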

Additional observations from a re-analysis of the deposited data

How the results depend on the processing

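The linker count was 2 or 3 of 3 under all 10 alternatives, and the median signal of bound members stayed between 151 and 232 under 4. Single genes moved further. With the summit nearest a start, rhea had 151 in place of 689 and if 36.2 in place of 94.4. LanB1 had 140 in the optimal list and 228 at 1000 bp in place of 28.2. The mew summit lay 1320 bp past the longest transcript's start in place of 13 bp past a nearer one. Using 1 replicate gave 5 to 9 bound members, 2 to 3 receptors, 2 to 3 linkers, 1 to 3 laminins and 9 to 14 wider genes, the low ends all from replicate 1 alone. Keeping only conservative peaks above the list's median signal left 4 members, 1 receptor, 0 laminins and 7 wider genes. Laminins fell to 1 with a width of 200 bp and to 1 where the interval had to overlap a start, since LanB1 then has no peak. With a summit counted only for the gene of the nearest TSS, mys was not bound. That left 8 members and 3 receptors. With RefSeq gene starts only, scb was not bound, and 8 members and 3 receptors remained. At 1000 bp all 10 members were bound. The share of all genes is not given for the shortened list, the other widths, interval overlap, nearest TSS or RefSeq starts. Counts under those settings therefore cannot be set against a background. The summit of if lay 813 bp and that of scb 3824 bp downstream of the longest transcript's start, in place of upstream of a nearer one. Strongest peaks overlapped filtered peaks of both replicates in 5 members (mys, scb, rhea, Ilk and LanB1), and in 4 when summits had to lie within 100 bp. At LanB1 the replicate summits lay 288 and 348 bp from the conservative one, at another peak. The share over all bound genes was not counted. No paired analysis was possible because the series has 1 group and no test was run. Unknown depth limits what absence from a list shows, and 2 libraries give no replicate error.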

Other observations

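Other filtered peaks inside the member genes were few. mew had one of 76.4 in an intron in the optimal list, 23207 bp from its first start, and if had one of 64.3 in an intron in replicate 2, 3090 bp from its first start. The peak of 89.6 in the optimal list 553 bp from the most upstream if start lay at the neighbouring gene mRpL22. Upstream of LanB1 the peak at the Cdc14 start had 228 in the conservative list, with 63.9 in replicate 1 and 176 in replicate 2, and its summit was 685 bp from the LanB1 start.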
